A study of Saccharomyces cerevisiae with 12 samples.

Results

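The COS genes of Saccharomyces cerevisiae are a family of close copies near the ends of chromosomes, and 10 of them, COS1 to COS10, were taken by symbol from a gene table of the laboratory strain S288C. Of these 10 genes, 9 had a row among the 6214 genes of the expression table, and COS2 (YBR302C) had none. Enough values for a test were present for 7 of them, COS1, COS3, COS4, COS5, COS6, COS8 and COS10. COS7 and COS9 lacked too many values and are described by their values alone.

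The 4 groups were the yeast strain ITD00185 at 48 h, the same strain at 96 h, the wine yeast T73 at 48 h and T73 at 96 h, each with 3 arrays labelled as biological replicates. ITD00185 is taken to be the agave strain named in the series title. All cultures fermented a synthetic agave must at 28 ºC, and no deletion, transgene or added drug is named for either strain. Each array carried total RNA of 1 strain in Cy5 against a Cy3 mix of samples labelled with that array's time, and what went into the mix is unknown here.

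Cos proteins span the membrane several times and reside at endosomes. Carrying ubiquitin themselves, they help to gather other membrane proteins into the vesicles of the multivesicular body, which deliver their cargo to the vacuole for breakdown. Their genes lie in regions where the Sir proteins silence transcription, and their expression has been linked to the cell's NAD level through the NAD-dependent deacetylases. The related DUP240 genes encode other membrane proteins that share a domain with the Cos proteins.

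Values are log2 ratios of the strain to the mix, as deposited; the base of the logarithm and the direction of the ratio are not stated. Base 2 is taken as the usual scale of such tables, and strain over mix is the likely direction from the order of channels and dyes in the labels. Every signed value rests on that reading. Arrays carried values for 5657 to 6116 probes, their medians ran from -0.03 to 0.42 and their standard deviations over probes from 1.03 to 2.08. At 48 h these deviations were 1.03, 1.52 and 1.06 for ITD00185 and 1.91, 2.08 and 1.80 for T73. At 96 h they were 1.48, 1.71 and 1.68 for ITD00185 and 1.31, 1.30 and 1.14 for T73. The spread of the arrays thus went with the strain at each time, in opposite directions. Across genes, ITD00185 48 h replicate 2 had r of only 0.40 and 0.50 to its fellow arrays. These lay below its 0.81 to 0.84 to the ITD00185 arrays of 96 h and its 0.54 to 0.71 to the T73 arrays. ITD00185 48 h replicates 1 and 3 had r of 0.73 to each other. The median strain difference over all genes at 48 h was -0.32 as deposited and -0.05 after median centring of the arrays, so members' differences at 48 h are given on both scales where a result turns on them. The COS reading frames are so alike that a probe may not separate them, and probe sequences were not used here. A strain may also lack a gene or carry it in altered form, which these ratios cannot tell apart from a difference in RNA.

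The members occupy 10 chromosome ends on 9 chromosomes in the reference strain. COS2, COS5 and COS7 are the outermost protein-coding genes of their ends, COS1, COS3 and COS6 are the second, COS8 and COS10 the fourth, COS9 the fifth and COS4 the sixth. The 9 members with a row lacked 12 of 54 values (22.2%) on the ITD00185 arrays and 6 of 54 (11.1%) on the T73 arrays. ITD00185 96 h replicate 2 lacked COS3, COS5, COS6, COS7 and COS9, and COS7 and COS9 had only 6 values each over the 12 arrays. Over all genes 5.88% of values were missing for ITD00185 and 6.25% for T73. The meaning of a missing value is not stated.

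**Figure D1:**
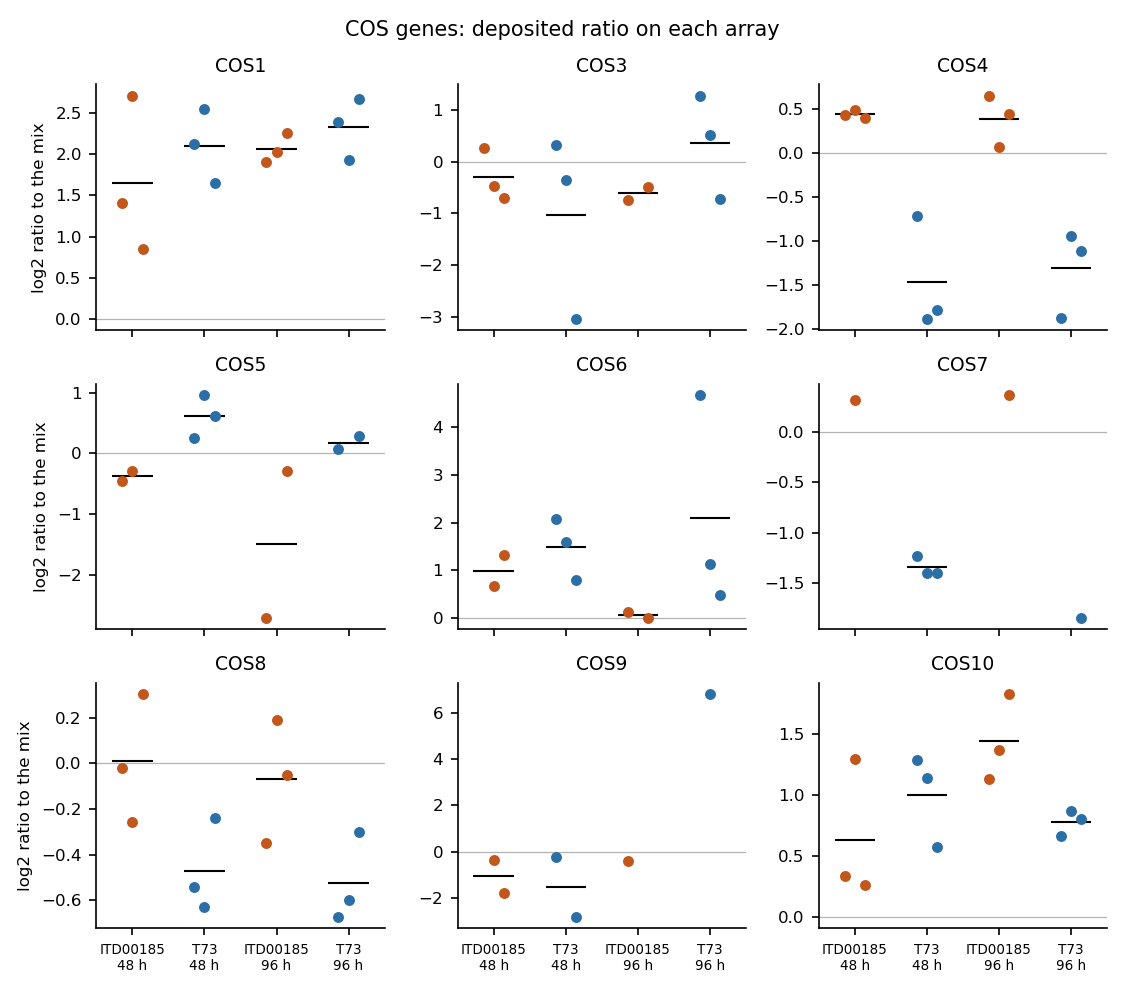
Log2 ratio to the mix (vertical axis, a scale of its own in each panel) of the 9 COS genes with a row, on each array of the 4 groups; points are arrays in the order of their replicate numbers, orange for ITD00185 and blue for T73, and bars are group means of 2 or 3 arrays. COS4 lay above 0 on all 6 ITD00185 arrays and below 0 on all 6 T73 arrays, while the strains overlapped at both times for COS1, COS3 and COS8.

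The first comparison asked whether the family differed between the strains at each time. COS4 (YFL062W) was the only member that passed the test, and it was higher in ITD00185 at both times. It stood at 0.43, 0.50 and 0.40 on the ITD00185 arrays of 48 h, against -0.72, -1.89 and -1.79 on the T73 arrays of 48 h. At 96 h its ratios were 0.66, 0.07 and 0.45 in ITD00185, against -1.87, -0.94 and -1.12 in T73. The strains did not overlap at either time, and the ITD00185 arrays of 48 h lay much closer together than those of T73. COS4 averaged 0.44 ± 0.05 in ITD00185 and -1.46 ± 0.65 in T73 at 48 h, and 0.39 ± 0.30 in ITD00185 and -1.31 ± 0.50 in T73 at 96 h (SD, n = 3 each). The difference was 1.91 ± 0.35 (SE of the fit) at 48 h, or 3.75-fold, with an adjusted p of 0.00251 in limma's moderated test. At 96 h it was 1.70 ± 0.35, or 3.24-fold, with an adjusted p of 0.00747 in the same limma fit. The change of this difference between the times was -0.21, with a 95% interval from -1.30 to 0.89. COS4 kept its direction and its call under each of 22 alternatives at both times, with values of 1.70 to 2.28 at 48 h and 1.42 to 1.88 at 96 h when 1 array was left out, and 2.17 and 1.65 with arrays centred.

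COS7 (YDL248W), the outermost gene of its chromosome end, had only 6 values, and these lay on the same sides of 0 as those of COS4. Its single ITD00185 value of 48 h was 0.31, against -1.23, -1.40 and -1.40 in T73. At 96 h the single values were 0.37 in ITD00185 and -1.85 in T73. The 2 ITD00185 values lay above all 4 T73 values. The difference of means was 1.66 at 48 h and 2.21 at 96 h. No test is given, since only the T73 group of 48 h had more than 1 value.

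COS8 (YHL048W), whose protein has been placed at the nuclear envelope, had small differences toward ITD00185 that did not pass. It read -0.02, -0.26 and 0.30 in ITD00185 at 48 h, against -0.54, -0.63 and -0.24 in T73. Its 96 h values were -0.35, 0.19 and -0.05 in ITD00185, against -0.67, -0.60 and -0.30 in T73. Single arrays of the strains overlapped at both times. The difference was 0.48 at 48 h (95% interval -0.07 to 1.02, adjusted p 0.141 in limma) and 0.45 at 96 h (-0.09 to 1.00, adjusted p 0.20 in limma). With arrays centred it was 0.74 at 48 h and passed (adjusted p 0.0431), and at 96 h it passed with array weights (0.52, adjusted p 0.0151).

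COS10 (YNR075W) had a ratio above 0 on every array. Its values at 48 h were 0.33, 1.29 and 0.26 in ITD00185, against 1.29, 1.14 and 0.58 in T73. At 96 h they were 1.13, 1.37 and 1.83 in ITD00185, against 0.66, 0.87 and 0.80 in T73. The strains overlapped at 48 h, through ITD00185 replicate 2, and did not overlap at 96 h. The difference was -0.37 at 48 h (-1.09 to 0.34, adjusted p 0.377 in limma) and 0.66 at 96 h (-0.05 to 1.38, adjusted p 0.159 in limma). Its change between the times was 1.04 (0.02 to 2.05), with an adjusted p of 0.0948. That change passed without ITD00185 48 h replicate 2 (1.37, adjusted p 0.0121) and without T73 48 h replicate 3 (1.25, adjusted p 0.049). With array weights both the change (1.66, adjusted p 0.00268) and the 96 h difference (0.89, adjusted p 0.0021) passed. With arrays scaled to one spread the strain difference was 0.18 at 48 h and 0.32 at 96 h.

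COS1 (YNL336W), at the other end of the same chromosome, also had a ratio above 0 on every array. It read 1.41, 2.71 and 0.84 in ITD00185 at 48 h, against 2.13, 2.54 and 1.65 in T73. At 96 h it read 1.90, 2.02 and 2.25 in ITD00185, against 2.40, 1.93 and 2.67 in T73. The strains overlapped at both times, and at 48 h the highest array was again ITD00185 replicate 2. The difference was -0.45 at 48 h (-1.40 to 0.50, adjusted p 0.422 in limma) and -0.27 at 96 h (-1.22 to 0.68, adjusted p 0.673 in limma). Without ITD00185 48 h replicate 2 it was -0.98 at 48 h and passed (adjusted p 0.0285), as it did with array weights (adjusted p 0.0415), whereas with arrays scaled to one spread it turned to 0.67. On that scale the change of the difference between the times was -1.69 and passed (adjusted p 0.0469).

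COS5 (YJR161C), the outermost gene of its end, had all its ITD00185 values below 0 and all its T73 values above 0. At 48 h the values were -0.45 and -0.29 in ITD00185, against 0.26, 0.96 and 0.62 in T73. At 96 h they were -2.71 and -0.29 in ITD00185, against 0.07 and 0.28 in T73. The strains did not overlap in the values present, which were fewer than 3 in 3 of the 4 groups. The difference was -0.98 at 48 h (-2.41 to 0.44, adjusted p 0.233 in limma) and -1.67 at 96 h (-3.23 to -0.11, adjusted p 0.111 in limma), and neither passed. Its sign was opposite to that of COS4 and did not turn under any alternative that could be run for it. With the strains on opposite sides of 0, leaving out an array could not turn it. No COS5 value of 96 h was left out in any of these, so they do not show how far that difference rests on 1 array.

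COS6 (YGR295C) was above 0 on every array with a value. It read 0.66 and 1.32 in ITD00185 at 48 h, against 2.08, 1.59 and 0.80 in T73. Its 96 h values were 0.12 and 0.003 in ITD00185, against 4.67, 1.14 and 0.49 in T73. The strains overlapped at 48 h and not at 96 h, where T73 replicate 1 stood far above the rest. The difference was -0.50 at 48 h (-2.83 to 1.83, adjusted p 0.724 in limma) and -2.04 at 96 h (-4.37 to 0.29, adjusted p 0.179 in limma). The 96 h value was -0.75 without T73 96 h replicate 1, and it passed with array weights (-3.00, adjusted p 0.0261).

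COS3 (YML132W), whose protein is known to bind the sodium and proton antiporter Nha1 and to raise salt tolerance, spread as widely within the T73 groups as between the strains. It read 0.27, -0.48 and -0.70 in ITD00185 at 48 h, against 0.31, -0.36 and -3.03 in T73. Its 96 h values were -0.74 and -0.50 in ITD00185, against 1.27, 0.51 and -0.71 in T73. The arrays overlapped at both times. The difference was 0.72 at 48 h (-1.02 to 2.47, adjusted p 0.481 in limma) and -0.97 at 96 h (-2.92 to 0.98, adjusted p 0.442 in limma). At 48 h it turned to -0.28 without T73 48 h replicate 3.

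COS9 (YKL219W) had 6 values, of which -0.35 and -1.78 were from ITD00185 at 48 h, against -0.23 and -2.82 from T73. At 96 h the single values were -0.41 in ITD00185 and 6.81 in T73. The strains overlapped at 48 h, and the T73 value of 96 h was far above every other value of the family. The difference at 96 h was -7.21, between 1 array of each strain, so no test is given.

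**Figure D2:**
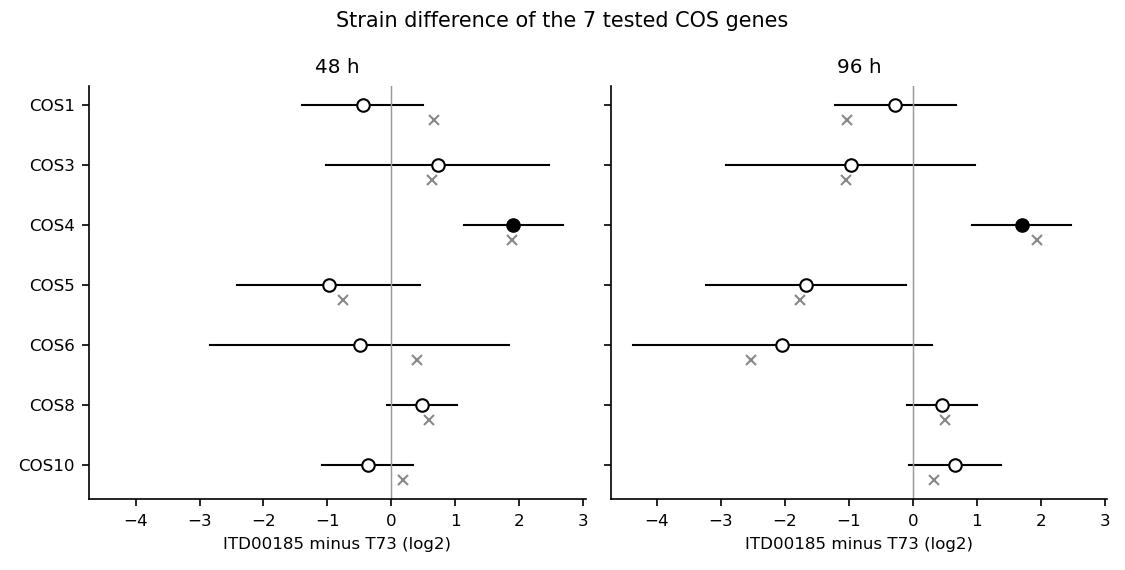
Strain difference, ITD00185 minus T73 on the log2 scale (horizontal axis), of the 7 tested COS genes at 48 h and at 96 h; circles with 95% intervals are the values as deposited, filled where the adjusted p was under 0.05, and grey crosses are the values with arrays centred and scaled to one spread. COS4 alone has filled circles, at 1.91 and 1.70, and COS1, COS6 and COS10 lie on the other side of 0 at 48 h once the arrays are scaled.

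Within the family the strain differences pointed both ways and mostly did not pass. Of the 7 tested members 1 was higher and 0 lower in ITD00185 at 48 h, and likewise at 96 h. That is 14.3% at each time, where 39.5% of all 5474 genes tested passed at 48 h (12.9% higher and 26.7% lower in ITD00185) and 22.5% at 96 h (12% higher and 10.5% lower). Over all genes 705 were higher and 1459 lower in ITD00185 at 48 h, or 1001 and 1120 with arrays centred. The signs were split, with 3 positive and 4 negative differences at each time, and the median over the 7 was -0.37 at 48 h and -0.27 at 96 h, beside -0.32 and -0.01 over all genes. With arrays scaled to one spread the median of the members was 0.59 at 48 h and -1.02 at 96 h, beside -0.06 and -0.03 over all genes. On that scale 1 of the 7 members and 22.9% of all genes passed at each time. The middle size of the difference without regard to sign was 0.50 among the members and 0.85 among all genes at 48 h, and 0.97 among the members and 0.66 among all genes at 96 h. Arrays of the strains did not overlap for 1 of the 5 members with all 6 values at 48 h, beside 40.9% of all such genes, and for 2 of 4 members at 96 h, beside 58.2%. The 95% intervals of the 6 members that did not pass all reached a 2-fold difference at 48 h, and at 96 h all but that of COS8 did.

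For members with a value on all 12 arrays the profiles did not follow 1 common course. Pearson's r over the 12 arrays was 0.66 between COS4 and COS8 and 0.61 between COS1 and COS10, against -0.58 between COS1 and COS8. COS4 had r of -0.33 to COS1 and of 0.21 to COS10. These are descriptions over arrays that share their strain, time and spread. Of 4123 other genes with a symbol and all 12 values, those most like the mean of these 4 members were SPG4 (r 0.89), GON7 (0.89), the mitochondrial fusion GTPase FZO1 (0.87), the kinase CBK1 (0.87) and ZIM17, of mitochondrial import (0.87). They are the highest of 4123 correlations, picked for that, and the mean describes no single member, as the profiles differed.

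The next comparison asked whether the ratios changed from 48 h to 96 h. A change within a strain sets ratios to mixes of different times beside each other, so it is a change of the ratio and not of expression. In ITD00185 limma called 0 of 7 members, beside 6.52% of all genes called (3.82% higher and 2.7% lower at 96 h). An unadjusted p under 0.05 was found for 1 member, beside 1800 of all 5474 genes. In T73 limma called 0 of 7, beside 32.4% of all genes (8.42% higher and 23.9% lower at 96 h). There 0 members had an unadjusted p under 0.05, beside 2438 of all 5474 genes. For the change of the strain difference limma called 0 of 7, beside 38.0% of all genes (24.4% toward ITD00185 and 13.6% toward T73). Here 1 member had an unadjusted p under 0.05, beside 2729 of all 5474 genes. COS10 was the member with the unadjusted p under 0.05 in ITD00185, where it averaged 1.44 ± 0.35 at 96 h and 0.63 ± 0.58 at 48 h (SD, n = 3 each), a change of 0.81 (adjusted p 0.117 in limma). COS1 averaged 2.06 ± 0.18 at 96 h and 1.65 ± 0.96 at 48 h in ITD00185 (SD, n = 3 each), a change of 0.40 (adjusted p 0.526 in limma). With array weights both passed, at 1.28 for COS10 and 1.02 for COS1. Without ITD00185 48 h replicate 2 both passed too, COS10 at 1.15 (adjusted p 0.0108) and COS1 at 0.93 (adjusted p 0.0452). In T73 COS1 changed by 0.23 as deposited, and passed at 1.54 with arrays scaled to one spread (adjusted p 0.0283).

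COS12 (YGL263W), a further family member outside the set of 10 and the outermost gene of its end, read 0.30, 0.08 and -1.09 in ITD00185 at 48 h, against 0.01, -1.98 and -2.24 in T73. Its arrays overlapped at 48 h. Its difference of 1.17 at 48 h did not pass (adjusted p 0.175 in limma), but passed without T73 48 h replicate 1 (1.87, adjusted p 0.0354). At 96 h it was -0.02 (-1.48 to 1.43). COS111 (YBR203W) shares only the name and is far from the chromosome end, where it is the 100th protein-coding gene inward. It was lower in ITD00185, with differences of -1.36 ± 0.28 at 48 h and -1.58 ± 0.28 at 96 h (adjusted p 0.00426 and 0.0036 in limma). Its adjusted p at 48 h was 0.0526 in a fit of the 6 arrays of 48 h alone.

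Toward the centromere, the nearest tested genes passed the test more often than the 7 tested COS genes did, a contrast that was not itself tested. That did not hold toward the chromosome end at 48 h. These neighbours include those of COS2, COS7 and COS9, which had no test of their own. The nearest tested gene toward the centromere was called for 7 of the 10 members at 48 h, 6 higher and 1 lower in ITD00185, and for 7 at 96 h, again 6 higher and 1 lower. Over all genes, 39.5% passed at 48 h and 22.5% at 96 h. With arrays scaled to one spread the neighbours split into 6 higher and 3 lower at 48 h. The median difference of these neighbours was 1.48 at 48 h and 1.45 at 96 h. DDI3, a cyanamide hydratase gene next to COS4, read 0.55, 3.17 and 3.31 in ITD00185 at 48 h, against -1.73 and -1.66 in T73. It differed by 4.04 ± 0.76 at 48 h and 3.77 ± 0.68 at 96 h (adjusted p 0.00331 and 0.00477 in limma). DDI2, a near-identical copy of DDI3 that lies next to COS1, differed by 0.73 ± 0.35 at 48 h without passing and by 1.22 ± 0.35 at 96 h (adjusted p 0.0312 in limma), and lost that call without any single array of 96 h other than ITD00185 replicate 1, at 0.86 to 1.41.

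AIF1, a mitochondrial cell death factor next to COS10, read 4.16, 2.65 and 5.19 in ITD00185 at 48 h, against -2.03, -1.62 and -1.36 in T73. At 48 h the arrays of AIF1 did not overlap, whereas those of COS10 did. At 96 h, where AIF1 differed by 3.51 ± 0.56, the arrays of COS10 did not overlap either. MPH2, a maltose permease gene next to COS7, read 2.99, 0.87 and 2.14 in ITD00185 at 48 h, against -2.98, -2.46 and -2.03 in T73. ARN2, a siderophore transporter next to COS8, differed by 1.94 ± 0.28 at 48 h and 1.76 ± 0.28 at 96 h. For MPH2 and ARN2, as for DDI3 and AIF1, no array of one strain reached those of the other at 48 h. The same held for 40.9% of all genes with 6 values, and DDI3 had only 2 T73 values there. MPH2 differed by 3.15 ± 0.53 at 96 h. YML131W, next to COS3, was the lower one, at -1.33 ± 0.31 at 48 h and -1.91 ± 0.31 at 96 h. HXT16, a hexose transporter gene 3 places from COS5, was higher by 1.29 ± 0.39 at 48 h, a call lost without ITD00185 48 h replicate 1, ITD00185 48 h replicate 3 or T73 48 h replicate 3 (0.97 to 1.66). At 96 h HXT16 was higher by 1.68 ± 0.39, with an adjusted p of 0.0529 without T73 96 h replicate 1. SRY1, next to COS9, was higher at 48 h (1.66 ± 0.37) and stood at -0.06 at 96 h. PAU24 next to COS2 and PAU12 next to COS6, of the seripauperin family of close copies, differed by -0.16 and -0.13 at 48 h and by 0.34 and 0.31 at 96 h, without passing.

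Toward the chromosome end a tested gene was present for 6 members. Limma called 0 of these 6 at 48 h, beside 39.5% of all genes. An unadjusted p under 0.05 was found for 1 of them at 48 h, beside 2770 of all 5474 genes. At 96 h 2 were called, both lower in ITD00185, beside 22.5% of all genes. They were YHL049C, 2 places from COS8 (-1.89 ± 0.30, adjusted p 0.00211) and the telomeric helicase gene YRF1-6 next to COS1 (-0.75 ± 0.24, adjusted p 0.0474), of which YRF1-6 belongs to a family of near-identical copies and lost its call under 11 alternatives, among them the scaling of arrays to one spread (-0.69) and the loss of any 1 array of 96 h. The iron reductase gene FRE2, next to COS9, was at 1.00 ± 0.36 at 48 h, with an adjusted p of 0.0502 in limma. YFL064C next to COS4, PAU6, 2 places from COS10, and YRF1-3 next to COS6 did not pass at either time.

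**Figure D3:**
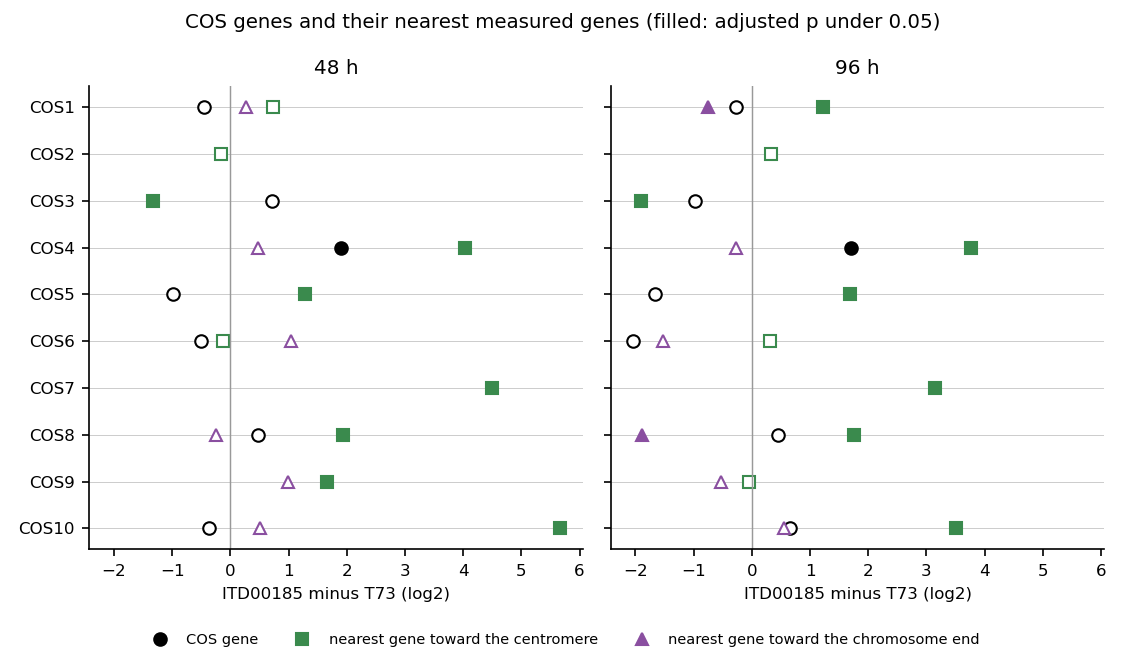
Strain difference, ITD00185 minus T73 on the log2 scale (horizontal axis), of each COS gene (circles) and of the nearest tested gene toward the centromere (squares) and toward the chromosome end (triangles), at 48 h and at 96 h; filled symbols have an adjusted p under 0.05. Of the 10 squares 7 are filled at each time, with DDI3 beside COS4 at 4.04 and AIF1 beside COS10 at 5.67 at 48 h, while COS4 is the only filled circle.

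Among the outermost genes at large, taken as the 10 protein-coding genes nearest each chromosome end without the COS members, 235 were tested. At 48 h 58 were higher and 37 lower in ITD00185 (40.4% called, near the 39.5% of all genes), with a median of 0.20, beside -0.32 over all genes. At 96 h 33 were higher and 44 lower (32.8% called, beside 22.5% of all genes), with a median of -0.09. With arrays scaled to one spread the counts at 96 h turned to 43 higher and 32 lower. The genes of this list with the smallest adjusted p were AAD3, DAL5 and MAL33 at 48 h. AAD3, an aryl alcohol dehydrogenase gene, was higher by 3.77 ± 0.23 and MAL33, a maltose activator gene, by 3.61 ± 0.29, whereas DAL5, the allantoate permease gene, stood at -5.44 ± 0.32. At 96 h they were DAL5 (-5.04 ± 0.32), DLD3, a lactate dehydrogenase gene (-4.36 ± 0.35), and AAD3 (2.25 ± 0.23).

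In the DUP240 family, the relatives of the COS genes, 5 of 10 genes were tested, of which 3 were higher and 1 lower in ITD00185 at 48 h and 3 higher and 0 lower at 96 h (1 lower with arrays centred). Over all genes 12.9% were higher and 26.7% lower at 48 h, and 12% higher and 10.5% lower at 96 h. MST28 was higher by 4.81 ± 0.95 at 48 h and 4.57 ± 0.95 at 96 h, and PRM9, which pheromone induces, by 2.73 ± 0.46 and 2.53 ± 0.46. DFP1 was higher by 4.15 ± 0.74 at 48 h. KTD1, linked to resistance to the killer toxin K28, was higher at 96 h (1.78 ± 0.52, adjusted p 0.0319), a call lost without any 1 array of 96 h other than ITD00185 replicate 2 (1.58 to 2.17). The gene lower at 48 h, outside the naming rule, was DFP3 (-1.29 ± 0.29). The family median was 2.73 at 48 h and 1.78 at 96 h, beside the COS medians of -0.37 and -0.27. DFP1, KTD1, PRM9 and MST28 lie close together on the right arm of chromosome I in S288C, and a probe may not separate such relatives.

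Cos proteins and their cargo are sorted by the ESCRT complexes. Of 20 tested genes of the ESCRT complexes and the multivesicular body, 0 were higher and 3 lower in ITD00185 at 48 h (1 lower with arrays scaled to one spread), and 3 were higher and 1 lower at 96 h (2 and 1 with arrays scaled). The shares called were 15.0% at 48 h and 20% at 96 h, beside 39.5% and 22.5% of all genes, and the median was -0.49 at 48 h (-0.02 with arrays scaled to one spread) and 0.49 at 96 h. VPS60, related to the subunits that cut vesicles from the membrane, was lower at 48 h (-1.86 ± 0.35, adjusted p 0.00283). DID2 (-3.25 ± 0.87) and VPS25 (-0.62 ± 0.22) were also called at 48 h, but DID2 lost its call without ITD00185 48 h replicate 3, after quantile normalization (-1.97), with arrays scaled (-1.82) and in a fit of the 6 arrays of 48 h. VPS25 lost its call without any 1 array other than ITD00185 96 h replicate 1 and with arrays centred (-0.35), and its sign turned after quantile normalization (0.11) and with arrays scaled (0.07). The ATPase gene VPS4, which takes the ESCRT coat apart, was higher at 96 h (1.79 ± 0.44), as were its cofactor VTA1 (2.83 ± 0.84) and the cargo adaptor BRO1 (1.39 ± 0.35). Each of these 3 lost its call without ITD00185 96 h replicate 2, T73 96 h replicate 1 or T73 96 h replicate 3, VPS4 also without ITD00185 96 h replicate 1 and VTA1 also without ITD00185 96 h replicate 3, after quantile normalization (2.21) and with arrays scaled (2.33) (VPS4 1.59 to 2.11, VTA1 2.11 to 3.35, BRO1 1.18 to 1.52). SNF8, outside the naming rule, was the gene called lower at 96 h (-0.69 ± 0.22) and lost its call without any 1 array of 96 h or without ITD00185 48 h replicate 3.

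Of 16 genes of the ubiquitin ligase RSP5 and its adaptors, 0 were higher and 6 lower at 48 h, or 5 and 5 with arrays centred, and 4 were higher and 0 lower at 96 h. The shares called, 37.5% at 48 h and 25% at 96 h, were near the 39.5% and 22.5% of all genes. Their median was -0.16 at 48 h, or 0.10 with arrays centred, and 0.06 at 96 h. The adaptor genes BUL1 (-1.92 ± 0.31), ALY1 (-2.22 ± 0.53) and TRE1 (-1.22 ± 0.26) were lower at 48 h, and TRE1 stood at -0.70 after quantile normalization, where it did not pass. At 96 h ALY1 was higher (2.31 ± 0.53), as were SSH4 (2.20 ± 0.60) and CSR2 (1.17 ± 0.30), all 3 adaptors of the ligase. None of these 3 kept its call without ITD00185 96 h replicate 2 or without T73 96 h replicate 1, SSH4 lost it also without ITD00185 96 h replicate 3 or T73 96 h replicate 3, and CSR2 without ITD00185 96 h replicate 3 or T73 96 h replicate 2 (ALY1 2.01 to 2.79, SSH4 1.94 to 2.62, CSR2 1.08 to 1.31). The fourth gene called at 96 h was ART10 (2.42 ± 0.76), outside the naming rule, a call lost without any of 6 single arrays (2.17 to 2.74).

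Among 18 tested genes of telomeric silencing and of the NAD-dependent deacetylases, 0 were higher and 6 lower in ITD00185 at 48 h (2 and 6 with arrays centred), and 2 were higher and 1 lower at 96 h. The shares called were 33.3% at 48 h and 16.7% at 96 h, beside 39.5% and 22.5% of all genes. Their median was -0.78 at 48 h and 0.02 at 96 h, or -0.55 and -0.17 with arrays scaled to one spread. The genes of the Sum1 repressor complex were lower at 48 h, SUM1 at -2.22 ± 0.32, the deacetylase gene HST1 at -3.11 ± 0.41 and RFM1, which links them, at -4.80 ± 1.00 (adjusted p 0.000743, 0.000463 and 0.00453 in limma). SUM1 was higher at 96 h, by 1.98 ± 0.32. YKU80, of the Ku complex at chromosome ends, was lower at 96 h, at -1.85 ± 0.39 (adjusted p 0.00847 in limma). SIR4, a structural part of silent chromatin, was higher at 96 h (3.21 ± 0.82), a call lost without ITD00185 96 h replicate 2, ITD00185 96 h replicate 3, T73 96 h replicate 1 or T73 96 h replicate 3 (2.98 to 3.62). Whether these levels bear on the COS genes was not tested.

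**Figure D4:**
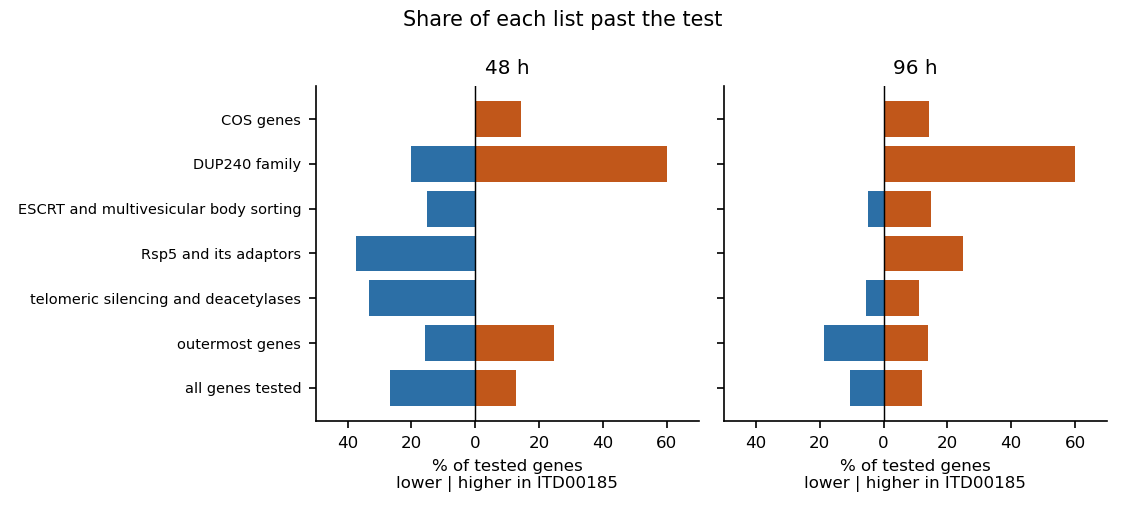
Share of tested genes past an adjusted p of 0.05 (horizontal axis, in percent), higher in ITD00185 to the right and lower to the left, for the COS genes, the DUP240 family, 3 lists of the sorting and silencing machinery, the outermost genes and all genes, at 48 h and at 96 h. The COS bars stand for 1 of 7 genes and the DUP240 bars for 5 genes.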

How the data were processed

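The authors deposited a log2 ratio for each probe and array; scanning, background correction and normalization are not given in the sources used here. In all, 6246 probes were matched to the S288C gene table (assembly R64) by systematic name (5753) or synonym (34), 459 kept their own names, and probes of a gene were averaged. Genes with values on at least 2 arrays of each group were fitted with 4 group means on 12 arrays in limma 3.58.1 (R 4.3.3), with 8 residual degrees of freedom where no value was missing and 3.16 from the prior. Tests were two-sided, adjusted by Benjamini and Hochberg over all 5474 genes, with a threshold of 0.05. The fit was run on simulated data in which each gene had the same spread on every array. That test does not cover arrays of unequal spread, which these are. Alternatives varied the array scaling, extreme values, the rule on missing values, array weights, a replicate block and the arrays used. The members, lists and neighbours were chosen with earlier results of these data known. All 10 members are named, with COS12, COS111, the nearest tested gene on each side, the 5 genes most like the members' mean, and up to 3 genes of each list per time with the smallest adjusted p among those called. Precision is limited by 3 arrays per group. The p-values weigh group differences against the spread between replicate arrays, which the fit takes as equal in the 4 groups and moderates with the prior.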

Additional observations from a re-analysis of the deposited data

Results flagged for a closer look

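No tested COS gene passed the limma test for a change of its strain difference between 48 h and 96 h. COS10 came closest at 1.04 (95% interval 0.02 to 2.05, adjusted p 0.0948 in limma), and both COS10 and COS1 passed in some alternatives. For COS6 the interval ran from -4.84 to 1.76. Of the other genes named, 22 passed the test of the change itself (96 h minus 48 h of ITD00185 minus T73, log2). Over all 5474 genes 38.0% passed it, and the list genes were named for a small adjusted p in the strain difference. Among the silencing genes the change was 4.20 for SUM1, 3.78 for HST1, 5.57 for RFM1, 4.97 for SIR4 and -1.89 for YKU80. Among the sorting genes it was 4.53 for ALY1, 1.99 for BUL1, 1.88 for TRE1, 3.87 for SSH4, 1.86 for VPS60, 5.11 for DID2, 1.85 for BRO1, 1.95 for VPS4 and 3.96 for VTA1. Of the genes beside COS members it was -1.63 for YHL049C, -1.72 for SRY1, -1.53 for FRE2, -2.57 for YRF1-3 and -1.02 for YRF1-6. For DFP1 of the DUP240 family it was -3.00, and for the outermost genes DLD3 and AAD3 it was -2.98 and -1.52. All are values as deposited, and their stability as changes is not given here. Single-time calls of DID2 and SSH4 at 48 h and of SIR4, VPS4, VTA1, BRO1 and SSH4 at 96 h were among those lost in some alternatives. Calls for the change over all genes fell from 2080 to 1215 with arrays scaled to one spread.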

How the results depend on the processing

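COS4 kept its call at both times under all 22 alternatives. With arrays centred on the median 2 members were called at 48 h, and with every estimable gene 2 at 48 h, 3 at 96 h, 1 for the change of the strain difference and 1 for the change in T73, the additions being COS7 and COS9, which have 1 array in 3 groups and in the 2 groups of 96 h, so these calls rest on the spread of the other groups. With array weights 2 were called at 48 h, 4 at 96 h, 1 for the change of the difference and 2 for the change in ITD00185. With arrays scaled to one spread, and also after quantile normalization, 1 was called for the change of the difference and 1 for the change in T73. Leaving out 1 array gave 1 to 2 calls at 48 h, 1 at 96 h, 0 to 1 for the change of the difference, 0 to 2 in ITD00185 and 0 in T73.

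The members' median at 48 h became 0.59 with scaled arrays, 0.60 after quantile normalization, 0.0522 with genes on all 12 arrays, 0.46 with every estimable gene and 0.0437 from the 6 arrays alone, with -0.59 to 0.61 when 1 array was left out. At 96 h it became -1.02, -1.06 and 0.56 in the first 3 of these, with -0.47 to 0.71 when 1 array was left out; fewer members are tested in some of these fits. Signs at 48 h turned with scaled arrays and quantile normalization for COS1 (0.67 and 0.71), COS6 (0.39 and 0.50) and COS10 (0.18 and 0.20), and without an array for COS3 (-0.28 to 1.39). COS12 at 96 h turned to 0.11 and 0.0696, with -0.62 to 0.39 without an array. The cause was not tested. From the 6 arrays of 48 h alone 4 neighbours toward the centromere were called (HXT16, YML131W and SRY1 lost), and 5 to 7 at either time without 1 array; the neighbours and lists were put through alternatives after the data were seen. The change of the difference uses all 12 arrays, so no fit of 6 arrays gives it.

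Of 18 correlations between deviations of same-numbered arrays 8 exceeded 0.1 (-0.19 to 0.52), and 19 of 36 best matches shared a number, where numbers without meaning would give about 12. Not every pair was over 0.1, so the numbers were not taken to pair the arrays. The replicate block left 1 COS call at each time, with a median of 0.0881 at 48 h, which is the value of COS6; COS12 at 48 h passed with it (1.17).

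Over all genes, 2164 calls at 48 h became 1252 with scaled arrays, 1265 after quantile normalization, 778 from 6 arrays and 1386 to 2824 without an array. The 1229 calls at 96 h became 3178 with array weights, 2486 from 6 arrays and 545 to 1813 without an array. For the change of the difference 2080 became 1215, 1248 and, with array weights, 3275 (1277 to 2894 without an array), for ITD00185 357 became 227, 203, 2835 with array weights, 683 with the block and 64 from 6 arrays (7 to 2094), and for T73 1772 became 759 and 766 (931 to 2270).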

Other observations

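The genes whose profile was most like that of COS4 alone, chosen after its values were seen, were SEC12 (Pearson's r over the 12 arrays 0.94), CAF120 (0.94) and the hexose transporter gene HXT15 (0.91). Genes chosen for following COS4 share its strain difference by that choice.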
